A study of Zea mays with 6 samples.

Results

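Of the 33051 genes listed for developing maize kernels, 62 met a rule for clearly higher values in the libraries labelled ZmSUS1 transgenic. The comparison was with the libraries labelled as the non-transgenic control. In 61 of the 62 every transgenic value was above 0, while Zm00001d048504 met the rule through a single library. The SUS1 transcript itself was lower in the libraries labelled transgenic (below), so "transgenic" and "control" mean those labels throughout. If the labels of the groups were exchanged as a whole, 61 of the 62 genes would be clearly lower in transgenic kernels. The genes described below as near absent in the control would then be near absent in transgenic kernels. Such an exchange was not tested. A gene was taken when its mean over the 3 transgenic libraries was at least 5 FPKM and its smallest transgenic value was at least 1.5 times its largest control value. FPKM is the number of sequenced fragments scaled to the length of a gene and to the depth of a library. The IDs Zm00001d024150 to Zm00001d024270 were left out by the rule, and 0 of the 71 listed genes in that range met the other criteria. Because these values chose the genes, the difference between the groups is described for them and not tested. Every gene of the 62 is known here by its ID alone, so no function is given for any of them.

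All 6 libraries were made from messenger RNA of whole kernels of the inbred line KN5585 at 10 days after pollination. The control group (CK) held 3 libraries labelled as non-transgenic KN5585 and the transgenic group (T) held 3 libraries labelled as KN5585 with the ZmSUS1 transgene. The series text states biological replicates and 1 selected transgenic strain, so an effect of the transgene and other differences between that strain and its control cannot be told apart. The sources used here do not give the promoter of the transgene.

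The maize kernel combines endosperm, which fills with starch and storage protein, an embryo, and maternal tissue around them. In the weeks after pollination the endosperm becomes a sink for sucrose. Sucrose synthase, the enzyme that SUS1 encodes, cleaves sucrose into fructose and UDP-glucose, which feed starch synthesis, cell walls and respiration. A whole-kernel library mixes these tissues, so more cells of a type and more RNA per cell cannot be told apart for any gene below. The tissue could not be checked against marker genes, since the sources pair no nuclear ID other than that of SUS1 with a name.

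Summed FPKM lay between 1359750 and 1378940 per library and 28449 to 29052 genes were above 0. SUS1 (Zm00001d047253) is not among the 62 genes. It stood at 214, 210 and 221 FPKM in control libraries 1 to 3 and at 155, 149 and 160 FPKM in transgenic libraries 1 to 3. The transcript of the targeted gene was thus lower under the transgenic label. Whether this goes against the label depends on the direction of change intended with the transgene, which is not known here. The median tested gene was lower in the transgenic libraries by a log2 fold change of -0.13, and dividing each library by its median ratio to the others moved that median to 0.001. Ratios are given as deposited unless they are called rescaled.

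The 62 genes were 0.501% of the 12363 genes at a transgenic mean of at least 5 FPKM. The mirror rule, with the groups exchanged, took 328 genes, which is 2.52% of the 13002 genes at a control mean of at least 5 FPKM. After median-ratio rescaling the rule took 115 genes and the mirror rule 195, and all 62 genes were among the 115. All 62 were also among the 126 genes taken after rescaling by the FPKM outside the 20 most abundant genes and the 123 taken after quantile normalization. The rescalings raise transgenic relative to control values for most genes, so genes that met the rule as deposited could hardly be lost under them, and that all 62 were kept is no support for the set.

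Most of the 62 genes were of moderate abundance. Their transgenic means were under 20 FPKM in 42 genes, between 20 and 100 FPKM in 18 and above 100 FPKM in 2. Without Zm00001d048504, described below, the other 61 genes had a median transgenic mean of 13.1 FPKM, close to the median of 13.8 FPKM over all 12363 genes at that level. The median control mean of the 61 was 5.96 FPKM, beside 15.3 FPKM over the 12363 genes, a difference that the rule itself favours. By level, the rule took 19 of 4274 genes with a transgenic mean between 5 and 10 FPKM (0.445%), 23 of 3760 between 10 and 20 FPKM (0.612%), 18 of 3664 between 20 and 100 FPKM (0.491%) and 2 of 665 above 100 FPKM (0.301%).

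**Figure D1:**
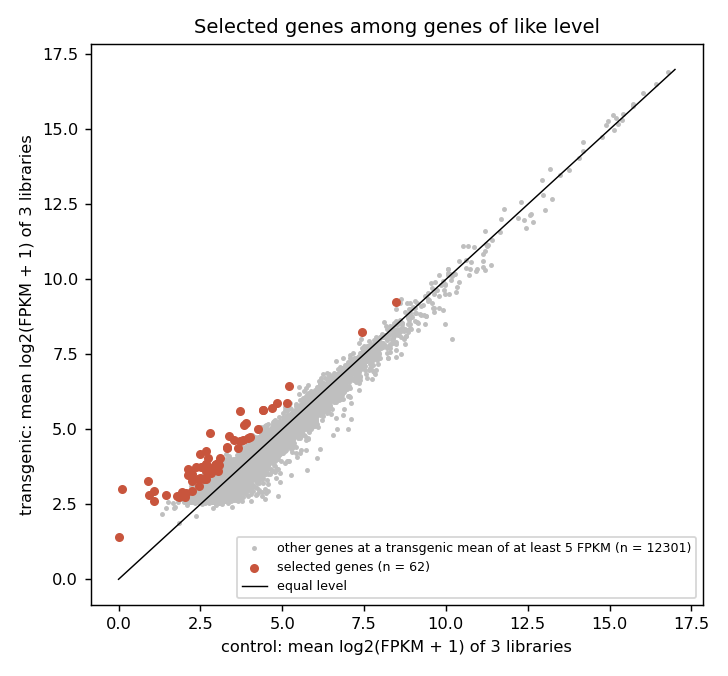
Mean log2(FPKM + 1) over the 3 control libraries (x axis) against the mean over the 3 transgenic libraries (y axis). Red points are the 62 selected genes, grey points are the 12301 other genes at a transgenic mean of at least 5 FPKM, and the line marks equal levels; the red points lie along the upper edge of the cloud, mostly at low and moderate levels, with 2 at high levels.

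The ratio of transgenic to control mean FPKM ranged from 1.58 to 94.6 over the 61 genes, with a median of 2.13. After median-ratio rescaling the median ratio was 2.37 and the lowest 1.76. The median ratio over all 12363 genes at that level was 0.912, and 180 of them had a ratio of means of at least 1.5. Of the 61 genes, 24 had a ratio under 2, 25 a ratio from 2 to 3 and 12 a ratio of 3 or more. The 12 genes with the larger ratios had control means from 0.0767 to 12.0 FPKM, while the 24 with a ratio under 2 reached from 3.12 to 355 FPKM in the control.

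Together the 62 genes summed to 1057, 1038 and 997 FPKM in control libraries 1 to 3 and to 2125, 2065 and 1987 FPKM in transgenic libraries 1 to 3. This was 0.0757 ± 0.00208% of all FPKM in the control group and 0.150 ± 0.00405% in the transgenic group (SD, n = 3 each). The 2 most abundant genes of the set carried much of both sums. Without them the sum was 502 ± 24.0 FPKM in the control group and 1151 ± 35.6 FPKM in the transgenic group (SD, n = 3 each).

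A linear model over 20514 genes (limma on log2(FPKM + 1), adjusted p under 0.05) called 61 of the 62 genes higher and 0 lower, where 2.88% of all tested genes were called higher. The rule used the same contrast, so nothing is read from that count. The gene that was not called was Zm00001d048504. The call of Zm00001d004658 was lost without transgenic library 1, without transgenic library 3 and without replicate 3 of both groups. Its values were 8.26, 2.96 and 6.04 FPKM in the control libraries and 12.92, 12.58 and 15.23 FPKM in the transgenic ones, and control 2 was the lowest of them.

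Zm00001d032128 was near absent in the control group and present in every transgenic library. It was listed at 0, 0 and 0.23 FPKM in control libraries 1 to 3 and stood at 9.77, 7.02 and 4.96 FPKM in transgenic libraries 1 to 3. The smallest transgenic value was 21.6 times the largest control value, the widest gap of the set. Among the transgenic libraries it varied with a coefficient of variation of 33.3%, also the highest of the 61 genes.

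Zm00001d048504 met the rule through a single library. It was listed at 0 in all 3 control libraries and in transgenic libraries 1 and 2, and at 18.29 FPKM in transgenic library 3. Its smallest transgenic value is 0, which is not below 1.5 times a control value of 0. It is not a gene of the transgenic group as a whole, and the set holds 61 genes when every transgenic value has to be above 0.

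Apart from these, control kernels already contained the transcripts that were higher. Every control value was at least 1 FPKM in 57 of the 62 genes and above 2 FPKM in 55. The control mean was at least 5 FPKM in 39 genes and under 2 FPKM in 7. Most genes near absent in the control group and present in every transgenic library were under the level that the rule asks for. Of the 33051 listed genes only 12363 reached that level, so no preference for low levels is read from this. In 23 genes of the whole list no control value exceeded 0.5 FPKM and every transgenic value was at least 1 FPKM, and 1 of these, Zm00001d032128, belonged to the 62. The 23 IDs held 21 distinct sets of values, since some IDs had identical values in all 6 libraries. The reverse pattern was found in 77 genes, 3 of them in the left-out ID range.

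Of the 23 genes, 5 were listed at 0 in all 3 control libraries. Zm00001d049254 stood at 4.64, 3.99 and 5.55 FPKM in transgenic libraries 1 to 3, Zm00001d046403 at 5, 3.78 and 4.92 FPKM, and Zm00001d042612 at 3.07, 3.87 and 4.34 FPKM. Zm00001d017561 had 1.87, 2.06 and 1.62 FPKM and Zm00001d010570 had a mean of 1.74 FPKM, highest in transgenic library 2. All 5 had every transgenic value above every control value and stayed out of the set because their transgenic means were under 5 FPKM.

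In several genes a low control level stood against a clear transgenic one. Zm00001d024411 had 0.29, 1.35 and 1.17 FPKM in the control libraries and 10.87, 10.95 and 5.65 FPKM in the transgenic ones, a ratio of means of 9.78. Transgenic library 3 was well below the other two but still above every control. Zm00001d023724 had 1.12, 0.92 and 0.70 FPKM against 5.50, 7.26 and 5.43 FPKM, a ratio of 6.64. Zm00001d019498 had 2.07, 0.80 and 0.67 FPKM against 4.98, 7.62 and 7.56 FPKM, a ratio of 5.69, and control 1 lay apart from controls 2 and 3. Zm00001d052673 had 1.14, 1.20 and 1.01 FPKM against 5.25, 5.02 and 5.06 FPKM, a ratio of 4.58. Its coefficient of variation was 8.70% in the control group and 2.40% in the transgenic group, and it had the lowest transgenic mean of the 61 genes.

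Among genes with a higher control level, Zm00001d014508 had 7.17, 4.28 and 6.52 FPKM in the control libraries and 22.36, 30.08 and 34.06 FPKM in the transgenic ones, a ratio of means of 4.81. Zm00001d009292 had 12.09, 13.13 and 10.79 FPKM against 52.08, 49.88 and 43.58 FPKM, a ratio of 4.04. No other gene with a control mean above 10 FPKM had a ratio of 3 or more. Zm00001d019674 had 4.90, 4.34 and 4.69 FPKM against 16.77, 17.03 and 17.08 FPKM, a ratio of 3.65. Zm00001d013594 had 3.15, 3.72 and 3.16 FPKM against 12.61, 11.63 and 10.87 FPKM, a ratio of 3.50. The coefficients of variation in the control and transgenic groups were 6.09% and 0.981% for Zm00001d019674 and 9.76% and 7.45% for Zm00001d013594. Zm00001d024407 had 5.23, 5.26 and 5.70 FPKM against 16.93, 20.36 and 18.54 FPKM, a ratio of 3.45. Zm00001d035867 had 3.55, 3.17 and 3.36 FPKM against 9.19, 9.01 and 13.00 FPKM, a ratio of 3.10, with transgenic library 3 above the other two.

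**Figure D2:**
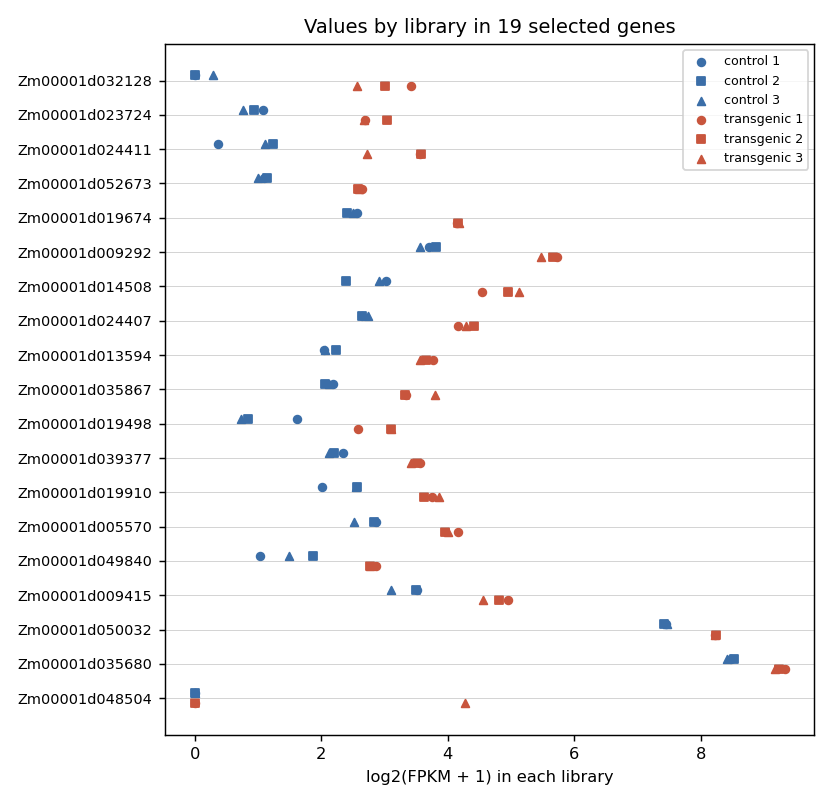
Values of 19 selected genes in each library, as log2(FPKM + 1) on the x axis, with 1 row per gene; blue is control, red is transgenic, and the marker gives the replicate number. The upper 16 genes have the widest gaps between the smallest transgenic and the largest control value; below them stand the 2 most abundant genes, Zm00001d050032 and Zm00001d035680, and Zm00001d048504, which is above 0 in transgenic library 3 alone.

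The 2 abundant genes had smaller ratios and little spread. Zm00001d035680 had 355.94, 368.05 and 341.08 FPKM in the control libraries and 643.97, 604.90 and 575.74 FPKM in the transgenic ones, which is 355 ± 13.5 against 608 ± 34.2 FPKM (SD, n = 3 each) and a ratio of 1.71. Zm00001d050032 had 173.61, 170.05 and 175.98 FPKM against 299.16, 301.49 and 298.91 FPKM, which is 173 ± 2.98 against 299.9 ± 1.42 FPKM (SD, n = 3 each) and a ratio of 1.73. Its coefficient of variation was 1.72% in the control group and 0.475% in the transgenic group. Over the 61 genes the median coefficient of variation was 10.2% in the control group and 7.45% in the transgenic group, beside 7.29% and 7.56% over the 12363 genes at that level.

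The next genes by abundance stood between 50 and 100 FPKM in the transgenic group. Zm00001d017204 had 39.16, 32.69 and 35.31 FPKM in the control libraries and 95.24, 88.65 and 77.85 FPKM in the transgenic ones, a ratio of means of 2.44. Zm00001d021666 had 28.63, 28.80 and 26.45 FPKM against 58.49, 59.25 and 57.60 FPKM, a ratio of 2.09. Zm00001d033539 had 24.99, 25.02 and 23.58 FPKM against 57.58, 52.68 and 44.20 FPKM, a ratio of 2.10. In these 3 genes the groups did not overlap, which the rule fixes for every selected gene with all transgenic values above 0. Zm00001d002318 and Zm00001d018010 had identical values in all 6 libraries (20.68, 23.13 and 17.92 against 51.38, 51.19 and 44.53 FPKM). IDs with identical values may share reads, so they are uncertain as separate genes. Counted once they leave 61 distinct genes, with Zm00001d048504 still among them.

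At the edges of the rule, genes on either side differed little. Just inside the fold limit, Zm00001d035222 had 34.04, 31.63 and 36.79 FPKM in the control libraries and 55.24, 58.66 and 59.45 FPKM in the transgenic ones, a smallest-to-largest ratio of 1.501. The same ratio was 1.503 for Zm00001d016746 and 1.505 for Zm00001d008478. Just outside, it was 1.494 for Zm00001d016934, 1.487 for Zm00001d031587 and 1.483 for Zm00001d029720. Zm00001d016934 had 51.30, 44.37 and 39.80 FPKM against 93.09, 81.16 and 76.65 FPKM. Over the 61 genes this ratio had a median of 1.77, and 16 genes lay under 1.6. Near the limit on level, the transgenic means were 5.11 FPKM for Zm00001d052673, 5.63 for Zm00001d038487 and 5.72 for Zm00001d035013. Just below it, the means were 4.98 FPKM for Zm00001d028401, 4.88 for Zm00001d030812 and 4.73 for Zm00001d049254. In all, 318 genes met the fold limit with every transgenic value above 0 but had a transgenic mean under 5 FPKM.

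The rule was also applied to 2 replicate numbers, with every transgenic value above 0, and the third pair of libraries was read. The pairs follow the replicate number, and no label states a pairing. With replicate 1 held out 94 genes were picked, with replicate 2 held out 91 and with replicate 3 held out 93, and each of these picks contained the 61 genes. The counts that follow describe the picks and not the 61 genes, whose own held-out ratios the rule fixes. The 61 genes are inside every count of picks that were higher or had a ratio of 1.5 or more. The shares are therefore no support for the 61 genes. In the held-out pair the transgenic value was the higher one in 90 of 94, 87 of 91 and 90 of 93 picks. Over all genes at the same level, the transgenic value was the higher one in 28.4%, 30.3% and 33% of genes in pairs 1 to 3. The held-out ratio was 1.5 or more in 78 of 94 picks (83.0%), 70 of 91 (76.9%) and 78 of 93 (83.9%). Over all genes at that level the shares were 2.08%, 1.94% and 2.24%. The median log2 ratio of the picks, with 1 added to each FPKM value, was 0.89 in the 4 libraries used and 0.76 in held-out pair 1, 0.89 and 0.85 for pair 2, and 0.85 and 0.89 for pair 3.

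**Figure D3:**
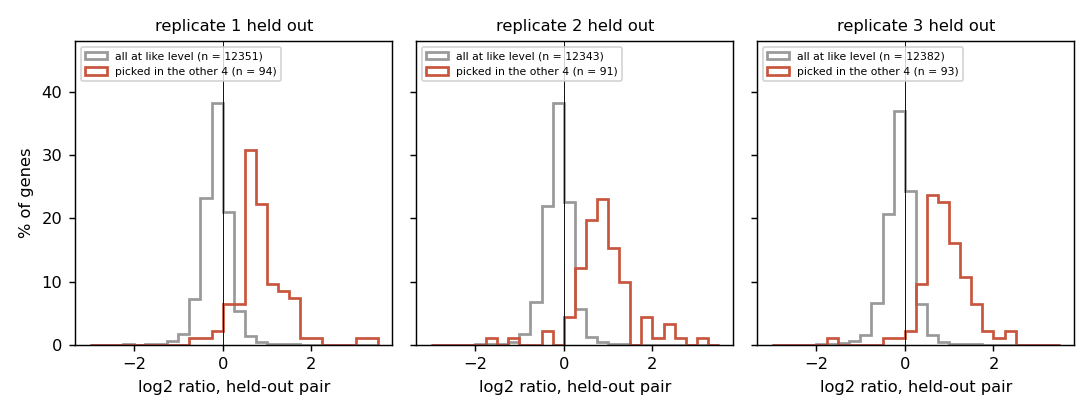
Distribution of the log2 ratio of transgenic to control (FPKM + 1) in the pair of libraries held out of the choice, 1 panel per replicate number, as percent of genes (values beyond the axis are drawn in the end bins). Red outlines are the 94, 91 and 93 genes picked in the other 4 libraries and grey outlines are all genes at the same level. The red medians are 0.76, 0.85 and 0.89 and the grey ones -0.14, -0.13 and -0.11. Every red outline includes the 61 selected genes, whose place above 0 the rule fixed.

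Within the groups, replicate 3 tended to be low and replicate 1 high in these genes. Control library 3 was the lowest of its group in 33 of the 61 genes (54.1%) and transgenic library 3 in 31 (50.8%), beside 45.2% and 38.9% of all genes at that level. Control library 1 was the highest of its group in 33 genes (54.1%) and transgenic library 1 in 31 (50.8%), beside 40.5% and 36.2%. Replicate 3 was the lowest in both groups in 21 of the 61 genes (34.4%), beside 22.03% of all genes at that level. Replicate 3 relative to the mean of replicates 1 and 2 had a median of 0.943 in the control group, over the 60 genes with every control value above 0, and 0.959 in the transgenic group, over the 61 genes. These medians were 0.972 and 0.989 over all genes at that level. The part of this pattern in the choice of genes was not tested. With replicate 3 left out of both groups the rule took 93 genes.

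IDs with close numbers are taken here to be neighbours, since no coordinates are used. The 62 genes were scattered over the ID range. The median difference between one ID and the next of the set was 552, and 54 of the 61 differences were over 100. Another gene of the set lay within 10 ID numbers in 4 of the 62 genes (6.45%). Of the 12299 other nuclear genes at a transgenic mean of at least 5 FPKM, 256 (2.08%) had a gene of the set within that distance. Within 50 ID numbers it was 9 of 62 genes (14.5%) beside 10.6%, so the set held no large block.

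The 4 genes formed 2 pairs, and each pair included a gene with very low control values. Zm00001d024407 and Zm00001d024411, both described above, are 4 numbers apart, and the first of them is 137 numbers beyond the left-out ID range. Between them, Zm00001d024408 had 17.69, 18.46 and 17.96 FPKM in the control libraries and 16.03, 14.62 and 15.58 FPKM in the transgenic ones, and it did not pass limma (adjusted p = 0.0627). Zm00001d024409 had 0.81, 1.10 and 0.86 FPKM against 0.86, 1.02 and 1.00 FPKM, with overlapping groups. Zm00001d032120 and Zm00001d032128 are 8 numbers apart. Zm00001d032120 had 5.29, 4.92 and 5.16 FPKM against 9.15, 9.72 and 8.56 FPKM, a ratio of means of 1.78. Between them, Zm00001d032123 had 36.92, 39.43 and 39.07 FPKM against 25.34, 37.32 and 25.65 FPKM, with transgenic library 2 apart from the other two. Zm00001d032127 had 0.59, 1.34 and 1.19 FPKM against 1.61, 1.10 and 0.74 FPKM, with overlapping groups. Of the listed genes between the pairs, Zm00001d024410 was higher in every transgenic library, at 0.07 FPKM in each against 0 in the control, and no other was.

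The listed genes directly before and after each selected gene were chosen by ID order and not by their values, apart from not being in the set, so their differences can be tested. Of 74 such adjacent genes tested, 11 rose (14.9%) and 9 fell (12.2%) by limma at an adjusted p under 0.05. Over all 20514 tested genes the shares were 2.88% higher and 16.2% lower. With median-ratio rescaling, 13 of the 74 (17.6%) were higher and 4 lower, beside 6.29% higher and 7.36% lower over all tested genes, and the 11 were among the 13. Genes adjacent to any gene at a transgenic mean of at least 5 FPKM rose in 2.91% of cases. Within 5 listed places on each side 24 of 351 genes rose (6.84%), and within 10 places 31 of 685 (4.53%), so the share was lower in wider windows. These windows include the adjacent genes. Both windows count Zm00001d014614 and Zm00001d014615, which had identical values in all 6 libraries and are uncertain as separate genes. With median-ratio rescaling the shares were 8.26% within 5 places and 7.01% within 10, beside 6.29% over all tested genes. When single libraries were left out, the share of adjacent genes that rose lay between 9.46% (without control 2) and 14.9% (without transgenic 3), and the share of all tested genes between 1.73% and 2.24%. Where only genes averaging 5 FPKM or more were tested, 6 of 42 adjacent genes rose (14.3%), beside 3.6% of all tested genes, and with no filter on low values 11 of 124 (8.87%), beside 1.66%. Of the 11 genes, 7 to 10 were still called without any single library. For the mirror rule, 90 of the 415 tested genes adjacent to its genes fell (21.7%), beside 16.2% over all tested genes.

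Of the 11 adjacent genes that rose, 10 had the ID number next to that of the selected gene. Among the 48 tested adjacent genes with a consecutive number these 10 were 20.8%, and among the 26 farther away 1 rose (3.85%). The split by consecutive number was chosen after the values were seen. Tandem copies, a gene model split over 2 IDs and overlapping genes that share reads can all have consecutive IDs. Their part in these counts was not tested, because the files give no sequence, strand or coordinates.

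The most abundant of the adjacent genes that rose was Zm00001d035681, next to the selected Zm00001d035680 given above. Zm00001d035681 had 958.44, 882.87 and 835.59 FPKM in the control libraries and 1164.91, 1178.77 and 1036.15 FPKM in the transgenic ones, with no overlap. Its log2 fold change was 0.34 ± 0.072 (SE; adjusted p = 0.0149, limma), and the call was lost without control 2, transgenic 1 or transgenic 2. Zm00001d032095, next to the selected Zm00001d032094, had 18.14, 15.40 and 17.01 FPKM against 26.09, 26.37 and 25.60 FPKM, a log2 fold change of 0.60 ± 0.075 (SE; adjusted p = 0.00157, limma). Zm00001d032094 itself had 16.55, 14.50 and 12.83 FPKM against 25.04, 25.65 and 24.95 FPKM, so this pair had nearly the same level in both groups.

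Zm00001d017203, directly before Zm00001d017204, had 21.61, 21.48 and 25.98 FPKM against 38.19, 33.54 and 33.80 FPKM, a log2 fold change of 0.59 ± 0.092 (SE; adjusted p = 0.00411, limma). Zm00001d025567 had 8.26, 6.54 and 6.90 FPKM against 11.18, 13.44 and 13.19 FPKM, a log2 fold change of 0.73 ± 0.11 (SE; adjusted p = 0.00366, limma). The selected Zm00001d025566 beside it had 6.78, 6.60 and 6.24 FPKM against 13.71, 10.67 and 12.95 FPKM. Transgenic library 2 was thus the lowest of its group in one gene of this pair and the highest in the other. Zm00001d023216 had 6.88, 4.66 and 4.90 FPKM against 9.25, 8.65 and 8.62 FPKM beside Zm00001d023215, which had 6.41, 5.65 and 6.34 FPKM against 10.62, 10.53 and 10.56 FPKM. The call of Zm00001d023216 (limma, adjusted p = 0.0154) was lost without control 2, without transgenic 1 and without replicate 3 of both groups.

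The other adjacent genes that rose at consecutive numbers were expressed at low levels. Zm00001d014509 had 0.69, 0.71 and 0.58 FPKM against 2.26, 2.12 and 1.99 FPKM beside Zm00001d014508, a log2 fold change of 0.91 ± 0.13 (SE; adjusted p = 0.00235, limma). Zm00001d003045 had 1.16, 1.16 and 0.81 FPKM against 2.68, 2.92 and 2.30 FPKM beside Zm00001d003044. Zm00001d021273 had 0.40, 0.52 and 1.13 FPKM against 2.25, 1.81 and 3.59 FPKM beside Zm00001d021272. Zm00001d034220 had 1.45, 1.71 and 0.77 FPKM against 2.69, 3.53 and 3.13 FPKM beside Zm00001d034221. Zm00001d014614 had 2.41, 2.56 and 2.34 FPKM against 3.67, 3.26 and 3.30 FPKM beside Zm00001d014613, and its values were identical to those of Zm00001d014615. None of these 5 genes had overlapping groups. The limma adjusted p was 0.00529 for Zm00001d003045, 0.0151 for Zm00001d021273, 0.0142 for Zm00001d034220 and 0.0480 for Zm00001d014614. The call of Zm00001d014614 was lost when any single library was left out and with the replicate number as a block, that of Zm00001d021273 without control 1 or control 2, and that of Zm00001d034220 without transgenic 2.

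**Figure D4:**
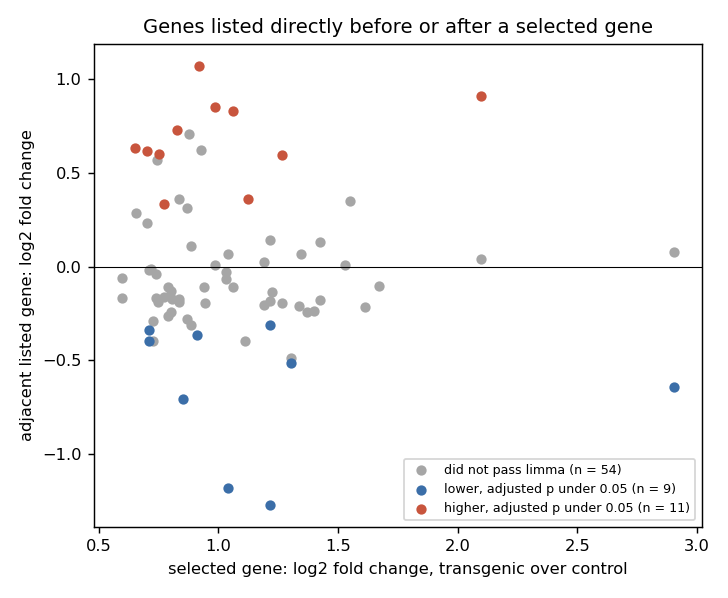
Log2 fold change (transgenic over control, log2(FPKM + 1) scale) of a selected gene on the x axis and of the listed gene directly before or after it on the y axis, for the 74 tested adjacent genes. Red points rose (11) and blue points fell (9) by limma at an adjusted p under 0.05, and grey points (54) did not pass.

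Near Zm00001d041660 several genes rose together, and this group was chosen after its values were seen. Zm00001d041660 had 4.77, 4.45 and 4.39 FPKM in the control libraries and 8.04, 7.49 and 7.55 FPKM in the transgenic ones. The adjacent listed gene Zm00001d041662 had 39.25, 36.54 and 35.49 FPKM against 64.48, 54.98 and 54.85 FPKM, a log2 fold change of 0.63 ± 0.079 (SE; adjusted p = 0.00161, limma). Zm00001d041663 had 74.25, 67.68 and 66.28 FPKM against 96.64, 99.73 and 93.71 FPKM, a log2 fold change of 0.47 ± 0.061 (SE; adjusted p = 0.00178, limma). Zm00001d041670 and Zm00001d041649, also within 5 listed places, rose as well (limma, adjusted p = 0.0437 and 0.00235), and the call of Zm00001d041670 was lost when any single library was left out. Zm00001d041649 was 1 of the 23 genes near absent in the control group, at 0.09, 0.27 and 0.35 FPKM against 1.46, 2.28 and 1.89 FPKM.

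Most neighbours did not rise with their selected gene. Of the 74 tested adjacent genes 11 rose and 9 fell. The median log2 fold change of the 74 was -0.108, beside -0.126 over all tested genes. Zm00001d032130, adjacent to Zm00001d032128 in the list, fell from 64.72, 65.40 and 56.44 FPKM in the control libraries to 38.58, 43.44 and 36.34 FPKM in the transgenic ones, a log2 fold change of -0.64 ± 0.086 (SE; adjusted p = 0.00212, limma). Zm00001d029778, next to the selected Zm00001d029777, fell from a mean of 5556 to 3434 FPKM (limma, log2 fold change -0.71, adjusted p = 0.00998). Zm00001d021665, next to Zm00001d021666, fell from a mean of 15.2 to 5.96 FPKM (limma, log2 fold change -1.18, adjusted p = 0.0186). The call of Zm00001d021665 was lost without control 1, control 2 or transgenic 2. All 3 genes also passed as lower after median-ratio rescaling (limma, adjusted p = 0.00544, 0.0247 and 0.0321).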

How the data were processed

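Whole maize kernels at 10 days after pollination gave 6 libraries, 3 control and 3 transgenic, grouped by sample title. The authors deposited 1 table of FPKM values per library (unit per the file headers), with 2 decimals. The submitters' processing notes name DESeq2 without a role; the sources used here give no aligner, counter, build or annotation. Fragment counts are not given, so depth is unknown and no counting interval was computed. A gene listed at 0 may be a failed estimate.

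The selection rule was applied to the FPKM as deposited. For 20514 genes, those averaging 1 FPKM or more over all libraries, log2(FPKM + 1) was compared between groups with limma 3.58.1 in R 4.3.3 (moderated variance with mean trend, 2-sided, Benjamini-Hochberg over all tested genes, threshold 0.05); all 62 selected genes passed that filter. Fold changes on that scale understate changes of low genes. The model was tested on simulated data. Same-numbered libraries deviated together (correlations 0.135, 0.122 and 0.325 across genes), so the number was taken to pair them and entered as a block in an alternative; control 2 with transgenic 1 gave 0.105, so the pairing of numbers 1 and 2 is not settled. No label states a pairing; it was read from the values.

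Named genes are those near absent in control (at most 0.5 FPKM), the 10 widest gaps, the 6 highest transgenic means, pairs within 10 ID numbers and the genes next to the thresholds; neighbours and others were added after seeing values. The genes and lists were chosen with earlier results of these data known. Lists of markers and pathway genes were not used, since the reference table (Zm-B73-REFERENCE-NAM-5.0) matched 0 nuclear IDs.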

Additional observations from a re-analysis of the deposited data

How the results depend on the processing

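The number of selected genes follows the limits set: 22 at a fold of at least 2, 176 at the looser fold tried, and 199 at a transgenic mean of at least 1 FPKM. The number was 43 at a transgenic mean of at least 10 FPKM and 48 with the fold taken on FPKM + 1. It was 115 with median-ratio rescaling, 126 with rescaling by the FPKM outside the 20 most abundant genes and 123 with quantile normalization, and 67 to 86 when single libraries were left out, where the rule has fewer values to meet. Over all tested genes these 3 rescalings gave 1290, 1399 and 1362 higher and 1510, 1400 and 1446 lower calls, beside 591 and 3316 as deposited. Fits without single libraries, which hold fewer samples, called between 354 and 459 genes higher and between 1931 and 2863 lower. The replicate block gave 716 higher and 3753 lower calls and left 11 of 74 adjacent genes higher, 10 of them also called without the block. It also called 61 selected genes higher, from which nothing is read, since the rule used the same contrast. The median log2 ratio of the selected genes, 1.09 as deposited, was 1.24 with median-ratio rescaling and 1.26 with the sum without the 20 genes, and 1.04 to 1.19 without single libraries. Their summed FPKM moved to 973 and 975 in the control and to 2156 and 2185 in the transgenic group under these 2 rescalings. Selected genes with another close by numbered 2 within 5 and 9 within 50 ID numbers. The share of neighbouring genes that rose was 14.9% at 1 and 4.53% at 10 listed places on each side, 3.47% at 5 places with no filter on low values, and 3.70% to 5.41% at 5 places without single libraries. Leave-outs, filters and the block for the neighbours, replicate 3 left out of both groups, and the demand for transgenic values above 0 were added after seeing the data. Depth is unknown, so values of low genes have no stated precision.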
